A study of Homo sapiens with 12 samples.

Results

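The 10 genes described here encode smooth muscle actins and the proteins that work with them on the actin filament: ACTG2, ACTA2, TAGLN, CNN1, CNN2, MYL9, TPM1, TPM2, CALD1 and MYLK. They were taken by gene name from the 60504 genes in the tables of 12 RNA sequencing libraries, and each of the 10 names matched 1 gene. The members were chosen by the TPM changes of these same libraries between groups as well as by function, so their changes are given as a description and carry no P value. The cells were T24, an established human bladder cancer line, and the study asked how U11, the small nuclear RNA that recognises the 5′ splice site of U12-type introns in the minor spliceosome, affects gene expression in them.

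The 12 libraries formed 2 separate comparisons. For the knockout comparison, 2 libraries of untreated T24 were set against 2 that are labelled U11 knockout (KO-labelled below), from monoclonal cells edited with CRISPR/Cas9 and a pair of guide RNAs. Against another 2 libraries of untreated T24, the overexpression comparison set 6 libraries of U11 overexpression, from T24 clones stably carrying a U11 plasmid. The overexpression libraries carried the line labels 79, 86 and 87, with 2 libraries each, and what these labels stand for is not given in the sources used here. Every group shared the T24 background, all groups were grown in culture, and separate cultures for the libraries of 1 group are not stated, so the spread between libraries may be technical.

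In the U11 values measured here, the libraries went against some of their labels. U11 was at 31.64 and 37.40 TPM (transcript abundance scaled by length and to the same total in each library) in the KO-labelled libraries, above the 21.35 and 23.82 TPM of their controls. U11 was at 0.03 and 0.62 TPM in the controls of the overexpression comparison, at 0.18 and 0.41 TPM in line 79, at 3.98 and 3.72 TPM in line 86 and at 61.86 and 53.60 TPM in line 87. Line 79 was therefore not separated from its controls by its U11 TPM. U11 TPM was also not lower in the KO-labelled libraries than in their controls, so these are named by their label. How fully each type of library captured U11, a small RNA, was not tested, so U11 TPM may not follow the U11 level in the cells. U11 was also measured by real-time PCR in the study, which is not analysed here. Between 13.65 and 15.17 gigabases aligned per library in the knockout comparison and between 9.07 and 15.33 in the overexpression comparison. Protein-coding genes held 44% to 47.1% of TPM in the former and 94.2% to 94.9% in the latter, so fold changes were computed only within a comparison.

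Smooth muscle contracts when myosin, switched on by phosphorylation of its regulatory light chain, pulls on filaments built from actin and tropomyosin. Each of these proteins exists as smooth muscle and as general isoforms, and several smooth muscle isoforms are also made by fibroblasts and by cultured or mesenchymal carcinoma cells. Many of the genes carry CArG boxes in their promoters, short elements bound by serum response factor (SRF), which acts with myocardin or with the actin-sensing MRTF cofactors. The bladder wall holds smooth muscle, so other cell types could carry these transcripts into a bladder sample. T24 is a cell line grown in culture, and the purity of these cultures was not tested.

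Promoter sequences are shown for the members that hold a CArG box of the strict form given below, because that element is the best known regulatory element of these genes. RefSeq promoter windows, from 250 bases before to 50 bases after an annotated start, were found for 8 of the 10 genes (13 windows), with none for TAGLN and MYL9. CArG boxes were searched only in the strict form CCWWWWWWGG, where W is A or T, so boxes with another base were not counted. A strict CArG box was found in 3 of the 13 windows (23.1%), 1 each of ACTG2, CNN2 and MYLK, against 454 of 35116 windows of all genes (1.29%). ACTG2 held 2 CArG boxes, from −110 to −101 and from −73 to −64, and 11 of the 35116 windows (0.0313%) held 2 or more. The sequences read 5′ to 3′ on the strand of the gene, with the CArG boxes in capitals, and lie on GRCh38.p14 at chr2:73892758-73893057 on the plus strand (ACTG2), chr19:1026358-1026657 on the plus strand (CNN2) and chr3:123620499-123620798 on the minus strand (MYLK).
ACTG2: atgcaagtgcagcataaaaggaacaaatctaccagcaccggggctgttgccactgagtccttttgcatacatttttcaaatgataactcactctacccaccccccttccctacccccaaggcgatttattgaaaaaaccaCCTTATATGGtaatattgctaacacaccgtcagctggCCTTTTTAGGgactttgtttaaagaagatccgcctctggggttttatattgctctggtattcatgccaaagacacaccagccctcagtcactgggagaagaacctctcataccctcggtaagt
CNN2: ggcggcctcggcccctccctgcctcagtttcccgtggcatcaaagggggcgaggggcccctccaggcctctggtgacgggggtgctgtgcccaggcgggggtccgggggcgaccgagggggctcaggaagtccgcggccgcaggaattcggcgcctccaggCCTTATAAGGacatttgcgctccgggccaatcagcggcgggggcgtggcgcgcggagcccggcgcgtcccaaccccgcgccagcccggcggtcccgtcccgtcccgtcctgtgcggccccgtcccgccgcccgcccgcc
MYLK: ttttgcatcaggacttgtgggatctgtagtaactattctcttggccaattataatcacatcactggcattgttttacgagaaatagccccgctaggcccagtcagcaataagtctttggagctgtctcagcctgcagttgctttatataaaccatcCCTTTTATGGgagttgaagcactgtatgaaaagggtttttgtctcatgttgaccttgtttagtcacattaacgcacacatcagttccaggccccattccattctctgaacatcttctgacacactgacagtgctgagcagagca

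The MYLK window lies near the 3′ end of that gene, where a short transcript of MYLK begins. The letters TATAAA, searched on both strands, were present in the ACTG2 window from −31 to −26, in the MYLK window from −109 to −100 as a pair of overlapping matches, in 1 CALD1 window from −233 to −228, and in 11.5% of all windows. The letters CATTCC, the core of the MCAT element, were present in 1 window of ACTA2, 2 windows of CALD1 and the MYLK window, and in 14% of all windows. No CArG box of the strict form was found in the windows of ACTA2, CNN1, TPM1, TPM2 and CALD1, which says only that these letters are not in the 300 bases searched. The ACTA2 window that starts at 88952724 holds CCCTATATGG and CCTTGTTTGG, each 1 base away from the strict form. The absence of a strict match therefore does not mean that ACTA2 lacks CArG boxes.

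**Figure D1:**
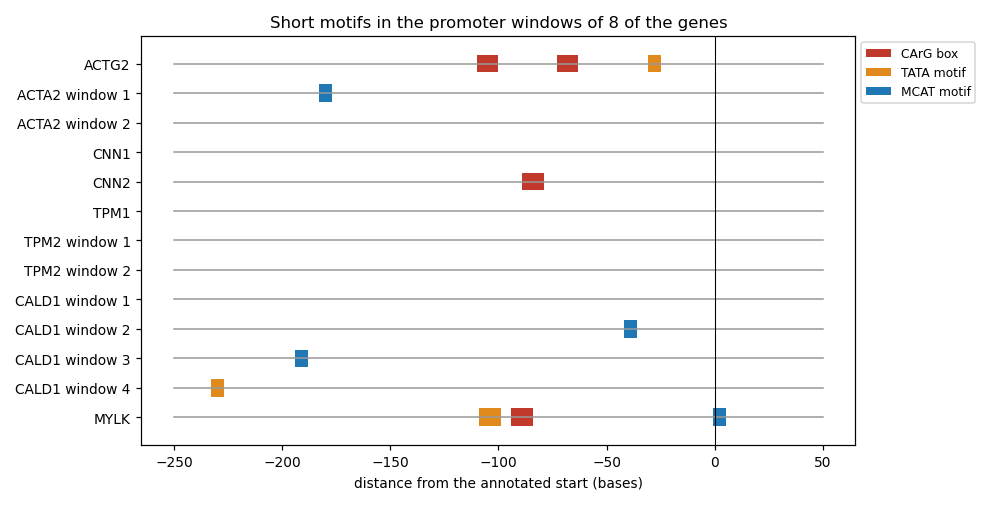
Positions of 3 short motifs in the 13 promoter windows of 8 genes, with the distance from the annotated start in bases on the horizontal axis and 1 line per window. ACTG2 is the gene with 2 CArG boxes of the strict form (red), and CNN2 and MYLK have 1 each. Orange marks the TATA motif and blue the MCAT motif.

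The members spanned a wide range of levels. TAGLN (transgelin, an actin-binding protein) was the highest in every library, except that TPM1 was higher in control replicate 2 of the knockout comparison. CNN1 and MYLK stood at the other end. CNN1, the smooth muscle calponin, did not pass 0.09 TPM in any of the 12 libraries and was not tested. MYLK, the kinase that phosphorylates the myosin regulatory light chain, did not pass 0.26 TPM in the overexpression comparison and was tested only in the knockout comparison, where it passed the filter of 1 TPM in 2 libraries through the KO-labelled libraries alone. The 10 genes together held 1318.5 to 1435.5 TPM in the knockout controls and 2002.4 to 2052.2 TPM in the KO-labelled libraries. In the overexpression comparison they held 5300.9 to 5310.6 TPM in the controls, 3707.1 to 3768.8 in line 79, 4438.7 to 4490.8 in line 86 and 3273.5 to 3303.7 in line 87. The sum was thus above the controls in both KO-labelled libraries and below them in all 6 overexpression libraries.

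**Figure D2:**
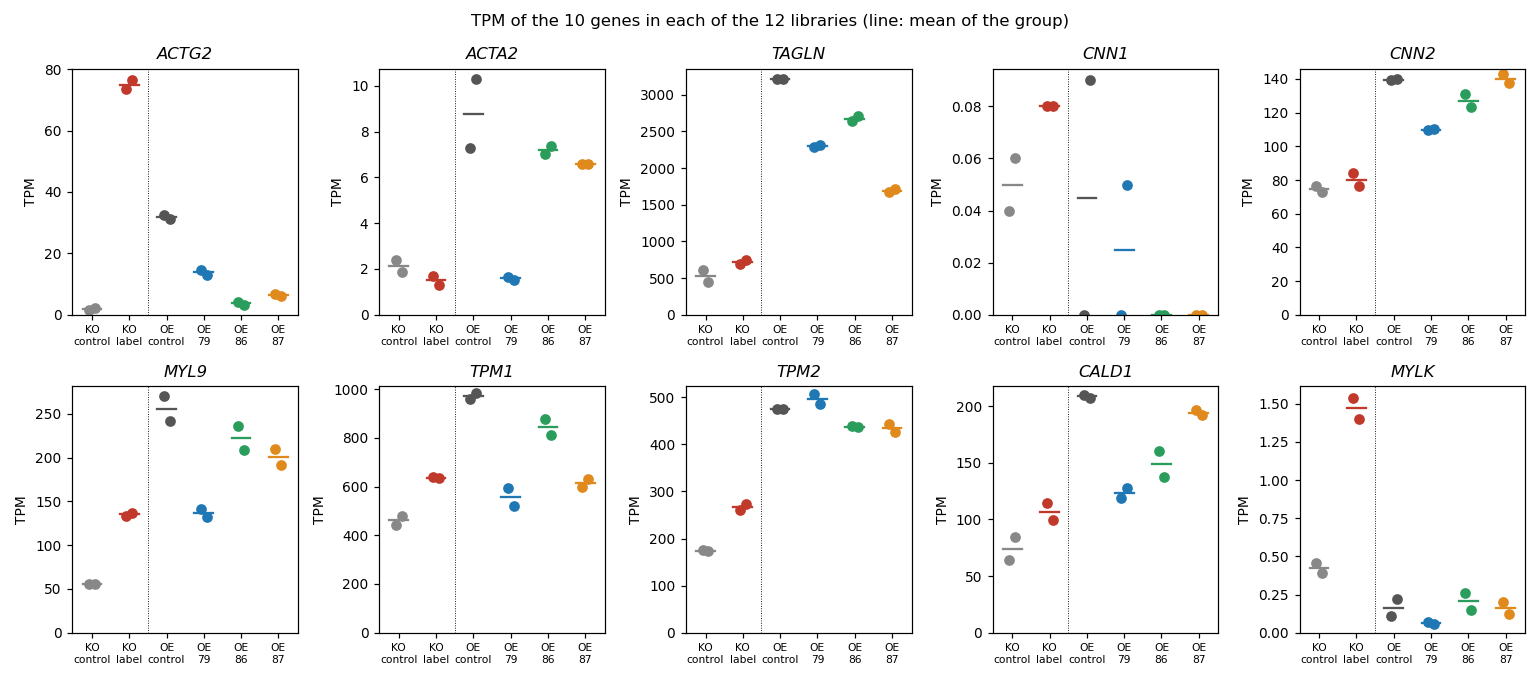
TPM of each of the 10 genes in each library (points) with the group mean (line), and with the 2 comparisons separated by a dotted line. ACTG2 is at 73.48 and 76.42 TPM in the KO-labelled libraries against 1.43 and 2.07 TPM in their controls, and all 6 overexpression libraries lie below their own controls.

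ACTG2 encodes the gamma actin of smooth muscle, the main muscle actin of the gut and bladder wall. It lies at chr2:73892314-73919865 on the plus strand (hg38), and none of its 4257 transcript windows of 150 bases is shared with another gene. ACTG2 was at 1.43 and 2.07 TPM in the knockout controls and at 73.48 and 76.42 TPM in the KO-labelled libraries, the largest change of the 10 genes (log2 fold change 4.80, SE 0.15, on log2(TPM + 1)). In the overexpression controls it was at 32.57 and 31.19 TPM. It was at 14.72 and 12.87 TPM in line 79, at 4.14 and 3.24 TPM in line 86 and at 6.86 and 6.18 TPM in line 87. No library of any of these groups overlapped with a library of another, and the order was control, 79, 87, 86 from high to low. The log2 fold change was −1.15 (SE 0.13) in line 79, −2.82 (SE 0.13) in line 86 and −2.13 (SE 0.13) in line 87. The fall was smallest in line 79, where U11 TPM was at that of the controls, and largest in line 86, while U11 TPM was highest in line 87. A relation between U11 TPM and ACTG2 was not tested. The 2 sets of untreated T24 also stood at different ACTG2 levels, set side by side here from separate comparisons, and how much of that comes from the cultures and how much from the type of library cannot be told apart.

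The other smooth muscle actin, ACTA2 (alpha actin, widely used as a marker of myofibroblasts), lies at chr10:88935074-88991390 on the minus strand. It was at 2.41 and 1.89 TPM in the knockout controls and at 1.68 and 1.32 TPM in the KO-labelled libraries (log2 fold change −0.33, SE 0.16), the only member tested that was lower there without overlap. It was at 7.27 and 10.30 TPM in the overexpression controls, at 7.04 and 7.38 TPM in line 86 and at 6.60 and 6.59 TPM in line 87. In line 79 it was at 1.66 and 1.52 TPM (log2 fold change −1.90, SE 0.16). ACTA2 was thus lowest in the line where ACTG2 was highest among the overexpression lines, and control and line 86 overlapped. ACTA2 overlaps FAS, STAMBPL1 and ACTA2-AS1 on the opposite strand, and whether the counting used strand is not given in the sources used here. In line 79 FAS was at 3.21 to 6.38 TPM against 15.83 to 19.61 TPM in the controls, and STAMBPL1 at 4.33 to 4.91 TPM against 12.92 to 13.31 TPM. In the KO-labelled libraries FAS was at 9.45 to 10.61 TPM against 3.15 to 6.38 TPM, the opposite direction to ACTA2. The part of reads from these neighbours in the ACTA2 values was not tested.

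Because both actins were read in the same library, their ratio does not depend on how a library was scaled. ACTG2 over ACTA2 was 0.593 and 1.1 in the knockout controls and 43.7 and 58.0 in the KO-labelled libraries. It was 3.03 to 4.48 in the overexpression controls, 8.47 to 8.86 in line 79, 0.438 to 0.587 in line 86 and 0.938 to 1.04 in line 87. Line 79 lay above its controls in this ratio and lines 86 and 87 below them. Against ACTB, the general beta actin, ACTG2 was at 0.496 to 0.878 TPM per 1000 TPM of ACTB in the knockout controls and at 18 to 22.9 in the KO-labelled libraries. It was at 4.87 to 5.72 in the overexpression controls, 2.96 to 3.21 in line 79, 0.584 to 0.681 in line 86 and 1.16 to 1.37 in line 87, so that all 3 lines were below the controls on this scale.

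**Figure D3:**
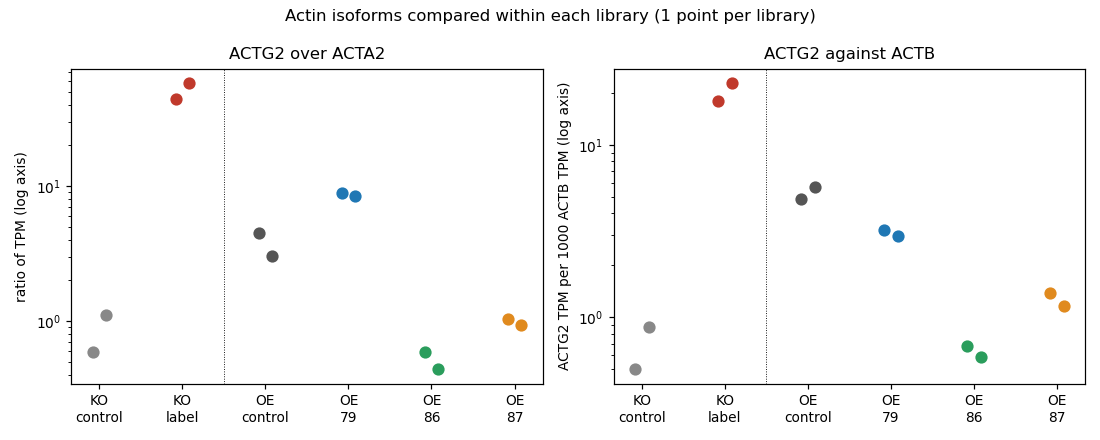
ACTG2 over ACTA2 (left) and ACTG2 per 1000 TPM of ACTB (right) within each library, 1 point per library, both on a log axis, for the 6 groups. The KO-labelled libraries lie at 43.7 and 58.0 on the left, above their controls at 0.593 and 1.1, and line 79 is above its controls on the left and below them on the right.

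MYL9 encodes the regulatory light chain of smooth muscle myosin, at chr20:36541484-36551447. It was at 56.12 and 55.45 TPM in the knockout controls and at 133.31 and 136.74 TPM in the KO-labelled libraries (log2 fold change 1.26, SE 0.08). It was at 270.53 and 241.54 TPM in the overexpression controls, at 141.18 and 132.64 TPM in line 79 (−0.90, SE 0.10), at 236.38 and 208.39 TPM in line 86 and at 209.54 and 191.80 TPM in line 87. Lines 86 and 87 overlapped each other, and both lay between the controls and line 79. As a share of the summed TPM of MYL9 and the general light chains MYL12A and MYL12B, MYL9 made up 5.81% to 6.18% in the knockout controls and 10.2% to 10.9% in the KO-labelled libraries. The share was 11.2% to 13.2% in the overexpression controls, 7.34% to 8.39% in line 79, 10.4% to 12.8% in line 86 and 9.5% to 11% in line 87, of which line 86 overlapped with the controls. MYLK, whose kinase acts on this light chain, was at 0.46 and 0.39 TPM in the knockout controls and at 1.54 and 1.40 TPM in the KO-labelled libraries (log2 fold change 0.79, SE 0.12). At a pseudocount of 0.1 in place of 1 the MYLK difference was 1.58, since its level is close to the pseudocount.

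The tropomyosins TPM1 and TPM2 cover the actin filament and set which partners reach it. TPM1, at chr15:63042632-63071915, was at 443.21 and 480.97 TPM in the knockout controls and at 638.48 and 635.53 TPM in the KO-labelled libraries (log2 fold change 0.46, SE 0.08). It was at 957.85 and 984.11 TPM in the overexpression controls and lower in each line without overlap, with 876.31 and 811.58 TPM in line 86, 597.56 and 631.15 in line 87 and 594.35 and 519.89 in line 79. The corresponding log2 fold changes were −0.20 in line 86, −0.66 (SE 0.08) in line 87 and −0.80 (SE 0.08) in line 79. TPM2, at chr9:35681992-35691020 on the minus strand, was at 174.90 and 173.41 TPM in the knockout controls and at 261.15 and 272.79 TPM in the KO-labelled libraries (0.61, SE 0.07). TPM2 moved least of the tested members in the pooled overexpression comparison, from 475.19 and 474.66 TPM in the controls to 506.21 and 485.41 in line 79, 437.86 and 436.38 in line 86 and 442.50 and 427.09 in line 87. TPM1 over TPM2 was 2.53 to 2.77 in the knockout controls against 2.33 to 2.44 in the KO-labelled libraries. It was 2.02 to 2.07 in the overexpression controls, 1.86 to 2.0 in line 86, 1.35 to 1.48 in line 87 and 1.07 to 1.17 in line 79, so the 2 tropomyosins were closest to equal in line 79.

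The remaining members bind or bundle actin filaments. TAGLN, at chr11:117199321-117204782, was at 616.62 and 446.95 TPM in the knockout controls and at 694.03 and 752.49 TPM in the KO-labelled libraries (log2 fold change 0.46, SE 0.17). It was at 3217.92 and 3211.81 TPM in the overexpression controls, at 2637.49 and 2710.84 in line 86 (−0.27), at 2281.99 and 2316.88 in line 79 (−0.48, SE 0.05) and at 1670.75 and 1711.45 in line 87 (−0.93, SE 0.05). The TAGLN controls of the knockout comparison were far apart while those of the overexpression comparison nearly coincided, and the order control, 86, 79, 87 had no overlap. Of the windows of 150 bases in the GENCODE transcripts of TAGLN, 33.8% are shared with AP000892.6, a gene listed just downstream at 6.73 to 23.7 TPM. At the gene positions deposited with the TPM values these genes do not overlap, since AP000892.6 starts at 117204967. Whether reads were divided between them was not tested.

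CALD1 (caldesmon, which blocks myosin on the filament until calcium rises) was at 63.86 and 84.50 TPM in the knockout controls and at 114.59 and 99.14 TPM in the KO-labelled libraries (0.53, SE 0.16). It was at 209.98 and 207.25 TPM in the overexpression controls, at 196.81 and 191.75 in line 87 (−0.10), at 160.49 and 137.32 in line 86 (−0.49, SE 0.09) and at 119.04 and 127.76 in line 79 (−0.75, SE 0.09), again without overlap. CNN2, the general calponin, moved little. It was at 76.50 and 72.83 TPM in the knockout controls and at 84.03 and 76.28 TPM in the KO-labelled libraries, with overlap (0.10, SE 0.09). CNN2 was at 139.20 and 139.72 TPM in the overexpression controls, at 142.66 and 137.62 in line 87, at 130.84 and 123.42 in line 86 and at 109.59 and 110.04 in line 79 (−0.34). Line 87 overlapped with the controls.

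Counted together, 4 of the 9 members tested (ACTG2, MYL9, TPM2 and MYLK) were called higher (fold change 1.5 or more, P below 0.05 before adjustment) in the KO-labelled libraries, where 11.8% of the 14356 genes tested were called and 8.61% were called higher. No member was called lower, against 3.15% of genes. MYLK reached the filter only through these libraries. Without it, 3 of 8 members were called higher, 6 were higher without overlap and the median was 0.50. Since the members were chosen by these changes, none of these counts supports anything beyond the values themselves. The libraries did not overlap for 7 members that were higher and for ACTA2, which was lower, against 39.9% and 20.4% of all genes. The median log2 fold change was 0.53 for the members and 0.11 for all genes. Most genes leaned upward in this comparison, with 1236 called higher and 452 lower, and median ratio scaling, which brings the median of all genes to −0.02, gave 773 higher and 775 lower. Relative to the median of all genes, the change was 4.69 for ACTG2, 1.15 for MYL9, 0.68 for MYLK, 0.51 for TPM2, 0.42 for CALD1, 0.36 for TPM1, 0.35 for TAGLN, −0.01 for CNN2 and −0.44 for ACTA2. TPM2 was the member nearest to the fold change of 1.5, and its call was absent with FPKM in place of TPM (0.51), with median ratio scaling (0.46), with protein-coding genes rescaled (0.57) and without replicate 2 of the label (0.58). TAGLN passed without control replicate 1 (0.69), and CALD1 passed without control replicate 2 (0.73) or without replicate 2 of the label (0.63).

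In line 79, 5 of the 8 members tested were called lower (ACTG2, ACTA2, MYL9, TPM1 and CALD1), where 7.95% of 15768 genes were called and 5.52% were called lower. In line 86, ACTG2 alone was called, where 3.6% of genes were called and 2.01% lower. In line 87, 3 members were called lower (ACTG2, TAGLN and TPM1), where 5.13% of genes were called and 3.05% lower. In each line 7 of the 8 members lay below the controls without overlap, against 30.7%, 19.9% and 25.5% of all genes in lines 79, 86 and 87. The exceptions were TPM2 in line 79, ACTA2 in line 86 and CNN2 in line 87. The median of the members was −0.78, −0.22 and −0.35 in this order, and that of all genes was −0.03, 0.01 and −0.01. These 3 comparisons share the same 2 control libraries. Across the members, the lowest line was 79 for ACTA2, CNN2, MYL9, TPM1 and CALD1, 86 for ACTG2 and 87 for TAGLN, and for TPM2 lines 86 and 87 overlapped at the bottom.

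**Figure D4:**
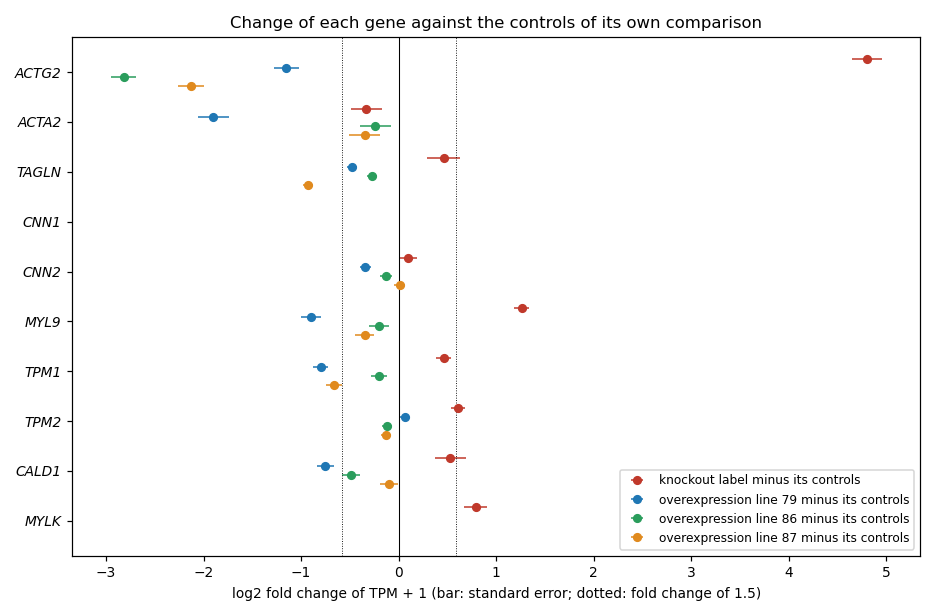
Log2 fold change of TPM + 1 (horizontal axis) for each of the 10 genes in the knockout comparison and in lines 79, 86 and 87, each against its own controls, with the standard error as a bar and dotted lines at a fold change of 1.5. ACTG2 is at 4.80 in the knockout comparison and at −1.15 to −2.82 in the lines, CNN1 was not tested, and MYLK was tested in the knockout comparison only.

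With all 6 overexpression libraries in 1 group, ACTG2 was the only member of 8 that was called (log2 fold change −2.03, SE 0.47), where 1.93% of genes were called and 1.16% lower. The pooled fit took the 6 libraries as independent, although each line gave 2 of them, so its SE and P values may be too small. With P adjusted over all genes no member was called there, and 0.165% of genes were. The libraries did not overlap for ACTG2, TAGLN, MYL9, TPM1 and CALD1, all lower, against 5.24% of all genes that were lower without overlap. All 8 values were below 0, from −0.06 for TPM2 to −2.03 for ACTG2, with −0.83 (SE 0.53) for ACTA2, −0.56 (SE 0.20) for TAGLN and −0.56 (SE 0.19) for TPM1. Each overexpression line had 1 library from each of 2 library code series, as did the controls. Within them the ACTG2 difference was −1.97 and −2.10, that of TPM1 −0.50 and −0.61, and that of ACTA2 −0.60 and −1.06, so every member tested kept its direction in both.

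The other genes of the actomyosin system were read from lists, by their calls in the same fits at the same thresholds (P before adjustment), and the P value adjusted over all genes is given beside each. Of 19 other subunits, among them the general actins, myosin heavy and light chains, TPM3, TPM4, CNN3, TAGLN2 and the actinins, 14 were tested and none was called by limma in any of the 5 comparisons. Without the fold threshold, an unadjusted P under 0.05 was reached by 9 of the 14 in the knockout comparison, 3 in the pooled overexpression comparison and 7, 2 and 3 in lines 79, 86 and 87. Their median log2 fold change was 0.34 in the knockout comparison and −0.16, −0.06 and −0.11 in lines 79, 86 and 87. In the knockout comparison 11 of the 14 were higher without overlap and 1 was lower, against 39.9% and 20.4% of all genes. Since the members were chosen by their changes, a contrast of these medians with theirs shows nothing. ACTB was at 2878.55 and 2357.32 TPM in the knockout controls and at 4081.48 and 3343.89 TPM in the KO-labelled libraries (0.50, SE 0.14, limma adjusted P = 0.0979). In line 79 ACTB was at 4590.45 and 4343.87 TPM against 6691.51 and 5456.35 TPM in the controls (−0.44, SE 0.11, limma adjusted P = 0.0522). ACTG1, the general gamma actin, had a log2 fold change of 0.01 (SE 0.17) in the knockout comparison and of 0.06, 0.20 and 0.02 in lines 79, 86 and 87.

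Of 16 regulators of SRF, RhoA and myosin phosphorylation, 14 were tested. ROCK1 (0.60, SE 0.23, limma adjusted P = 0.162), a kinase that holds myosin phosphatase in check, and PPP1R12B (0.61, SE 0.22, limma adjusted P = 0.152), a targeting subunit of that phosphatase, were called higher in the KO-labelled libraries. The small GTPase RHOC was the only regulator called in the overexpression comparison (0.81, SE 0.18, limma adjusted P = 0.308 in the pooled fit). Its level was 243.03 and 159.97 TPM in the controls and 281.66 to 404.47 TPM in the 6 overexpression libraries, above the controls in all 6. Its log2 fold change was 1.01 (SE 0.22, limma adjusted P = 0.0368) in line 79, 0.71 (limma adjusted P = 0.219) in line 86 and 0.72 (limma adjusted P = 0.15) in line 87. The factor SRF itself was at 16.07 and 15.88 TPM in the knockout controls and at 21.80 and 20.04 TPM in the KO-labelled libraries (0.37, SE 0.11, limma adjusted P = 0.101). In lines 79, 86 and 87 its log2 fold change was −0.20, −0.16 and 0.02, none of them called. Myocardin (MYOCD), the cofactor of SRF in smooth muscle, did not pass 0.52 TPM in any library.

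All 12 genes of focal adhesions and the attached cytoskeleton were tested. PDLIM5 was called higher in the KO-labelled libraries (0.65, SE 0.22, limma adjusted P = 0.135) and PDLIM1 lower (−0.63, SE 0.11, limma adjusted P = 0.0415). Both encode PDZ and LIM proteins that bind alpha-actinin. FLNC, a filamin that crosslinks actin, was called lower in line 79 (−0.71, SE 0.14, limma adjusted P = 0.0255), as was LPP (−0.64, SE 0.18, limma adjusted P = 0.081), a zyxin relative. PDLIM5 was called higher in line 87 (0.59, SE 0.10, limma adjusted P = 0.0374), and no gene of this list was called by limma in line 86, where 1 reached an unadjusted P under 0.05 without the fold threshold, or in the pooled overexpression comparison, where 0 did. Of 12 genes of differentiated smooth muscle 3 reached the filter, and the only call was SYNM, an intermediate filament protein, lower in line 79 (−0.65, SE 0.13, limma adjusted P = 0.0303).

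**Figure D5:**
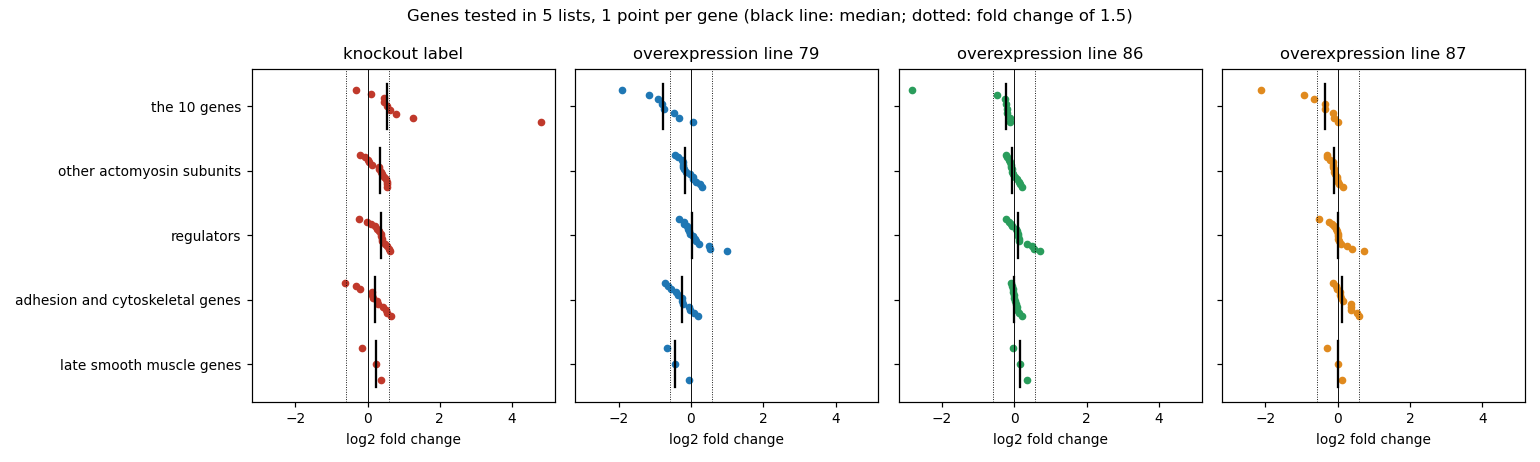
Log2 fold changes of TPM + 1 (horizontal axis, the same in each panel) of the genes tested in 5 lists, 1 point per gene, with the median as a black line and dotted lines at a fold change of 1.5, in the knockout comparison and in lines 79, 86 and 87. The median of the 10 genes is 0.53, −0.78, −0.22 and −0.35 in this order, and no gene of the other actomyosin subunits passes the dotted lines.

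The 8 genes chosen as markers of smooth muscle cells were near 0. None of these 8 reached 1 TPM in any library, and their sum was 0.44 to 1.51 TPM. Other genes of the differentiated smooth muscle list, outside these 8, were expressed. SMTN was at 58.54 to 163.71 TPM, CSRP1 at 58.61 to 300.03 TPM and SYNM at 2.17 to 5.81 TPM across all libraries. MYH11, the smooth muscle myosin heavy chain, was at 0.19 to 0.58 TPM and desmin (DES) at no more than 0.35 TPM. Of 10 fibroblast markers, the sum was 1.74 to 1.78 TPM in the knockout controls, 3.03 to 4.14 in the KO-labelled libraries and 2.2 to 4.37 in the overexpression comparison, led by COL1A1 at no more than 2.95 TPM. COL1A1 was called higher in the KO-labelled libraries (0.64, limma adjusted P = 0.0548) and PDGFRB lower in line 87 (−0.75, limma adjusted P = 0.0749). COL1A1 was at 0.75 and 0.82 TPM in the knockout controls, so in that comparison it reached the filter only through the KO-labelled libraries. Of 11 urothelial and epithelial markers, the sum was 1817.64 to 2177.41 TPM in the knockout comparison and 5487.15 to 8931.7 TPM in the overexpression comparison, led by KRT7, and KRT19 was called lower in the KO-labelled libraries (−0.74, limma adjusted P = 0.0194). Of 3 endothelial markers, CDH5 alone passed 1 TPM. It was at 4.85 and 4.75 TPM in the knockout controls and at 0.03 TPM in both KO-labelled libraries, and in line 79 it was at 34.09 and 32.24 TPM against 3.43 and 3.08 TPM in the controls (3.01, limma adjusted P = 0.000138). Of 3 immune markers, CD68 alone passed 1 TPM, at no more than 6.31 TPM, and it was called higher in line 87 (0.88, limma adjusted P = 0.0645). ACTG2 was thus measured at up to 76.42 TPM in libraries where MYH11 did not pass 0.58 TPM. The part of the other markers in the changes of the members was not tested, and in bulk RNA a change in the share of cells that express a gene and a change in the RNA per cell cannot be told apart.

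Across the 12 libraries, each centred on the controls of its own comparison, the profile of log2(TPM + 1) most like that of ACTG2 among 13792 genes was that of SLC39A8, followed by MR1, BBS5, RP11-686D22.3 and NUDT19, each with Pearson r = 0.98. These genes changed far less than ACTG2, with log2 fold changes of 0.90, 0.92, 0.56, 0.88 and 0.39 in the knockout comparison. The points share their controls and fall into few groups, so r is given as a description. SLC39A8, a metal transporter, was at 9.32 and 10.76 TPM in the knockout controls, at 20 and 19 in the KO-labelled libraries, at 20.27 and 20.68 in the overexpression controls and at 15.82 to 19.21 in the 6 overexpression libraries. Among the members, r with ACTG2 was 0.96 for TPM2, 0.86 for MYL9, 0.79 for TAGLN and CALD1, 0.77 for TPM1, 0.53 for CNN2 and 0.14 for ACTA2, the lowest. The KO-labelled libraries lay furthest from their controls in ACTG2 (4.80) and so weigh most in r. TPM2, for example, was at 0.06, −0.12 and −0.13 in lines 79, 86 and 87, against −1.15, −2.82 and −2.13 for ACTG2.

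U11 acts on U12-type introns, and none was found in the members. Of their 220 introns of at least 60 bases, 0 began with ATATCCTT or GTATCCTT, against 809 of 402166 such introns in all genes, which lie in 631 genes. At that share of 0.201%, a count of 0 among 220 introns does not set the members apart from other genes.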

How the data were processed

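RNA from 12 libraries of T24 cells was sequenced, and the labels name the untreated, U11 knockout and U11 overexpression libraries. The authors aligned reads to hg38 with Hisat2 and ran Stringtie per library. For each gene the authors deposited the coverage signal, the FPKM and the TPM. The labels name polyA RNA whereas the methods name rRNA depletion. The tables hold no read counts, so count tests were not run, counting error per gene is unknown, and the libraries of a group gave the only measure of error.

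Libraries were grouped by title. A gene entered a fit when 2 or more of its libraries reached 1 TPM, and limma 3.58.1 (R 4.3.3, lmFit and eBayes with trend) was run on log2(TPM + 1). Fold changes are on this scale and understate the changes of low genes. The knockout fit held 4 libraries, the pooled overexpression fit 8, and the lines came from a fit of the same 8 libraries with 4 groups. The thresholds of the methods were used for calls, a fold change of 1.5 or more and P below 0.05 before adjustment, and Benjamini-Hochberg adjusted P values over all genes were given for genes outside the 10. The members and the lists were chosen with earlier results of these data known.

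Named were all 10 members, U11, and up to 6 called genes per list with the largest changes. MYH11, DES, MYOCD, SRF, ACTB and ACTG1 were named whatever their values, as were the 5 genes most like ACTG2. Motifs were searched on both strands of RefSeq promoter windows. Shared sequence was counted in windows of 150 bases between GENCODE transcripts, and introns came from the same annotation. The gene positions are those of the files. Fits were checked on simulated data. The alternatives were a pseudocount of 0.1, FPKM, median ratio scaling, protein-coding genes rescaled, no filter, 1 TPM in every library, no trend, a replicate block, each line as its mean, adjusted P, and each library left out. Python 3.11.15, numpy 2.4.6, pandas 2.3.3 and matplotlib 3.10.9 were used.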

Additional observations from a re-analysis of the deposited data

Results flagged for a closer look

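CNN1 was at 0.05 TPM in 1 library of line 79 and at 0 in the other 5 overexpression libraries, which set that library apart from the rest. Dixon's critical value, used here, is set so that chance flags about 1 in 20 groups. The values here are mostly tied at 0, and the level is close to 0.

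TPM2 was on opposite sides of its controls in different lines. Both libraries of line 79 lay above the controls (log2 fold change 0.06, SE 0.05), and the share of all genes that did so is not given here. Both libraries of lines 86 (−0.12, SE 0.05) and 87 (−0.13, SE 0.05) lay below them, as did 19.9% and 25.5% of all genes in these lines. The TPM2 controls nearly coincided, at 475.19 and 474.66 TPM, so small differences fall outside them. The difference between the lines was not tested, because the members were chosen with their values known.

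Among the related genes the lines differed from each other in limma contrasts, with P values adjusted over all genes. The small GTPase RHOB was higher in line 79 than in line 86 (log2 difference 0.60, limma adjusted P = 0.00373) and than in line 87 (1.06, limma adjusted P = 0.000556). CALM3, a calmodulin gene, was lower in line 79 than in line 86 (−0.66, limma adjusted P = 0.00888). Of the 12 adhesion and cytoskeletal genes, 4 were lower in line 79 than in another line with an adjusted P under 0.05 and a fold change of 1.5 or more. FLNC differed by −0.67 from line 86 (limma adjusted P = 0.0249) and by −0.79 from line 87 (limma adjusted P = 0.0158). Zyxin (ZYX) differed by −0.76 from line 86 (limma adjusted P = 0.0274) and by −0.92 from line 87 (limma adjusted P = 0.0165). LPP (−1.01, limma adjusted P = 0.0182) and TGFB1I1 (−0.63, limma adjusted P = 0.0169) were lower in line 79 than in line 87. PDLIM5 was lower in line 86 than in line 87 (−0.65, limma adjusted P = 0.0192). SYNM was lower in line 79 than in line 86 (−1.0, limma adjusted P = 0.00597) and higher in line 86 than in line 87 (0.64, limma adjusted P = 0.0407).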

How the results depend on the processing

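Of 641 fold changes of members under alternatives, none was reversed past the thresholds, 595 moved by less than the spread between replicates, and 12 of 625 calls changed under the alternatives that keep P before adjustment. ACTG2 in the knockout comparison ranged from 4.53 to 5.36 and MYLK from 0.61 to 1.58. CNN2 changed sign near 0 in the knockout comparison (−0.05 to 0.17) and in line 87 (−0.02 to 0.03). With FPKM the number of all genes called fell from 304 to 173 in the pooled overexpression comparison, and to 790, 322 and 456 in lines 79, 86 and 87. With 1 TPM in every library, which leaves fewer genes to test, it was 175 in the pooled comparison, 370 in line 86 and 503 in line 87. With adjusted P it was 984 in the knockout comparison, 26 in the pooled overexpression comparison, 216 in line 86 and 418 in line 87. No member of the pooled comparison was called with adjusted P, against 1 at the unadjusted threshold. The cause of the change with FPKM was not tested. Leaving out 1 library gave 1 to 3 members in the pooled comparison, and the 3 were ACTG2, TAGLN (−0.61 and −0.62) and TPM1 (−0.64 and −0.61) without either replicate 1 or replicate 3 of line 86. It gave 1 to 2 members in line 86, where CALD1 (−0.60) was added without replicate 1, and 3 to 5 in the knockout comparison. A group left with 1 library was assumed to vary like the others. A replicate block, by replicate number or library code series, gave 1706 genes in the knockout comparison, 284 in the pooled overexpression comparison and 1252, 567 and 807 in lines 79, 86 and 87, with the number of members called unchanged. Libraries with the same replicate number in the knockout comparison, and libraries of the same code series in the overexpression comparison, deviated together only weakly (r = 0.02 in the former, 0.08 to 0.14 between lines and 0.05 to 0.10 between lines and controls), so they were not taken as pairs. With 2 libraries per group and no read counts, small changes of low genes were not detectable.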

Other observations

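ACTA2 lies among genes that were lower with it in line 79, a set chosen after its values were seen. Within 1 megabase on either side of ACTA2, 14 other genes were tested in the overexpression comparison. In line 79 the log2 fold change was below 0 for 13 of them, where 45.1% of all genes were above 0. Of the 14 genes 11 were called lower and 1 higher, where 7.95% of all genes were called. The median of the 14 was −0.87 in line 79, −0.34 in line 86 and −0.12 in line 87, against −0.03, 0.01 and −0.01 for all genes. In the knockout comparison, 10 of the 13 genes tested were above 0, where 63.7% of all genes were. Their median was 0.35, against 0.11 for all genes.

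The genes lower in line 79 included IFIT3 (−1.85, SE 0.09, limma adjusted P = 0.000258), IFIT2 (−1.43, SE 0.08, limma adjusted P = 0.000325) and IFIT1 (−1.19, SE 0.09, limma adjusted P = 0.00106), a family of interferon-induced genes that lie next to each other. They also included the overlapping neighbours of ACTA2, FAS, a death receptor (−1.74, SE 0.33, limma adjusted P = 0.0245), and STAMBPL1, a deubiquitinase (−1.33, SE 0.10, limma adjusted P = 0.00114). In line 86 IFIT3 was at −1.19 (limma adjusted P = 0.00402) and STAMBPL1 at −0.21 (limma adjusted P = 0.467). In line 87 IFIT3 was at −0.11 (limma adjusted P = 0.618) and STAMBPL1 at 0.15 (limma adjusted P = 0.507).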
